A study of Mus musculus with 35 samples.

Results

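Proteasome genes were examined in RNA sequencing (RNA-seq) of mouse hematopoietic stem/progenitor cells (HSPCs), the bone marrow cells from which all blood lineages arise. Members were every gene whose name begins with Psm, a letter from a to g and a number. This rule selected 48 of the 11982 gene names in the table of RPKM values, in which each read count is divided by transcript length and library size. Of these, 47 encode subunits, assembly chaperones, activators or an inhibitor of the proteasome. The remaining one, Psmc3ip, encodes a recombination cofactor that was first named as a binding partner of the ATPase Psmc3. WT and JMJD1B-/- mice of mixed 129P2xC57BL/6J background were compared, with 2 libraries of each genotype. WT mice carried intact Kdm3b, the gene for the histone demethylase JMJD1B, and JMJD1B-/- mice carried a gene-trap knockout of it. Each library held polyA RNA of HSPCs taken from bone marrow without further treatment; the study used adult male and female mice, and the mice behind a given library were not stated. The p values below therefore measure the spread between these libraries. In WT this spread was not technical alone, given the Xist and Y-linked values below, and in JMJD1B-/- it may be technical.

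The proteasome is the main protease of the cytosol and nucleus and degrades proteins that carry ubiquitin chains. Its 20S core is a barrel of outer alpha rings and inner beta rings, in which Psmb5, Psmb6 and Psmb7 hold the proteolytic sites. The 19S cap recognizes, unfolds and feeds substrates into the core through a ring of ATPases. In cells of the blood system, and elsewhere after interferon, Psmb8, Psmb9 and Psmb10 replace the catalytic subunits Psmb5, Psmb6 and Psmb7 to form the immunoproteasome, which shapes the peptides shown on MHC class I. Psma8 is an alpha subunit close to Psma7 and is known from the testis, where it enters the spermatoproteasome of meiotic cells.

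Kdm3b was measured first as a check of the genotype. Its RPKM was 31.0 and 24.3 in WT and 4.00 and 4.63 in JMJD1B-/- (log2 change -2.65, SE 0.24, adjusted p = 0.0314, limma over 11863 genes). Depth was estimated from the steps between low RPKM values at 17500000 and 24600000 reads in WT and at 6100000 and 21000000 reads in JMJD1B-/-, so JMJD1B-/- replicate 1 was the shallowest library. Of 16 HSPC markers, 15 were in the table, with a summed RPKM of 725.6 and 687.8 in WT and 523.7 and 689.8 in JMJD1B-/-. The fitted change was above 0 for 4 of them (47% of all genes) and below 0 for 11, and 6 (Cd34, Cd48, Flt3, Gata2, Mecom and Meis1) were lower at an unadjusted p of 0.05 (6.33% of all genes) and none at an adjusted p of 0.05 (limma). Marker RNA of mature lineages also differed between the genotypes. The summed RPKM of 10 erythroid markers ranged from 489 to 735 in WT and from 1336 to 1931 in JMJD1B-/-, and that of 8 basophil or mast cell markers ranged from 558 to 614 in WT and from 105 to 137 in JMJD1B-/-. The sums were also lower in both JMJD1B-/- libraries for 10 granulocyte markers (186 to 274 in WT, 55.2 to 84.99 in JMJD1B-/-) and for 6 stroma or endothelium markers (44.8 to 71.0 in WT, 14.0 to 26.7 in JMJD1B-/-). Of the 8 granulocyte markers tested, 5 were lower (6.33% of all genes) and 2 (S100a8 and S100a9) higher (3.81% of all genes) at an unadjusted p of 0.05, and 1 of the 8 passed an adjusted p of 0.05 (limma). By contrast, 7 monocyte or macrophage markers were low in JMJD1B-/- replicate 2 alone (29.4, against 85.8 to 100.6 in the rest). One WT library, replicate 2, stood apart in that it alone contained the X-linked RNA Xist (331.6 RPKM, against 0.051 RPKM or less elsewhere). Its 4 measured Y-linked genes were at 0.265 to 1.33 RPKM, compared with 9.003 to 64.5 RPKM in the other 3 libraries. WT thus joined libraries that differed in these genes, and both JMJD1B-/- libraries were like WT replicate 1. The labels give no sex. In such bulk RNA, fewer cells of a type and less RNA per cell cannot be told apart.

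The promoters of the catalytic subunits are shown because the comparison of immunoproteasome and constitutive core rests on these genes. RefSeq promoter windows (GRCm38.p6, 250 bases before to 50 after the start) were matched for 40 of the 48 members. The 150 bases before the start are printed 5′ to 3′ on the strand of the gene. Capitals mark matches, on either strand, to the antioxidant-type element TGACNNNGC, the NF-Y box CCAAT, or the palindromic STAT site TTCNNNGAA. Another motif, GAAA and GAAA around any 2 bases (an interferon-response core), had no match in these stretches. The stretches lie at chr17:34198045-34198194 (plus strand) for Psmb8, chr14:54617996-54618145 (minus strand) for Psmb5, chr17:34187331-34187480 (minus strand) for Psmb9, chr11:70525207-70525356 (plus strand) for Psmb6 and chr8:105938393-105938542 (minus strand) for Psmb10.
Psmb8: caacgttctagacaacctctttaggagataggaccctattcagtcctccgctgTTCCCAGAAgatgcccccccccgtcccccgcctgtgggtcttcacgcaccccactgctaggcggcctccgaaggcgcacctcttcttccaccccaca
Psmb5: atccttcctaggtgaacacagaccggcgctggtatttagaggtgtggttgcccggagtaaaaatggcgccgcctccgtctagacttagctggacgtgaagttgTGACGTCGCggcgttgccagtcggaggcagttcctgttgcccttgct
Psmb9: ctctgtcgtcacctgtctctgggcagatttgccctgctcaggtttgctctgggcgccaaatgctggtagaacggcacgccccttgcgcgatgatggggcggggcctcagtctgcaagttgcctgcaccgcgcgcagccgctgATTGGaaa
Psmb6: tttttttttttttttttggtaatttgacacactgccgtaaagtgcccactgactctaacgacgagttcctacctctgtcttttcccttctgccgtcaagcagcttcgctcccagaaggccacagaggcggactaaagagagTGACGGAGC
Psmb10: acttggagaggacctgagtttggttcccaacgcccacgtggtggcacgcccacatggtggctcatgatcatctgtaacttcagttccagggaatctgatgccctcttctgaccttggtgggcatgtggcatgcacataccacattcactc

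Each constitutive gene shown carried one TGACNNNGC match, and neither of them carried the STAT-type match found 97 bases before the start of Psmb8. Psmb9, whose window overlaps that of the divergent peptide transporter gene Tap1, carried a CCAAT match 8 bases before its start on the reverse strand. The family as a whole can be set beside all genes. TGACNNNGC was present in 6 of 40 members (Psmb5, Psmb6, Psmc6, Psmd12, Psmd9 and Psme4) and in 14% of 27025 genes with a promoter window. CCAAT was present in 14 of 40 members and 41.1% of genes, and TTCNNNGAA in 3 of 40 members (Psmb8, Psmd2 and Psmg1) and 9.55% of genes. The interferon-response core was present in 5 of 40 members (Psmb3, Psmd4, Psmd9, Psme1 and Psmg4) and 3.99% of genes. The motifs overlapped none of each other in the printed stretches, and a match describes letters only.

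All 48 members had a mean of at least 0.5 RPKM and were tested. None passed an adjusted p of 0.05 (limma, Benjamini-Hochberg), nor in the gene-by-gene test, though Psma8 did in limma with a replicate block (0.00405). Among all 11863 genes tested in the reported fit, 4 genes were lower (0.0337%) and 1 gene was higher (0.00843%) in JMJD1B-/-. At an unadjusted p of 0.05, 1 member was lower (Psma8), where 6.33% of all genes were, and 2 members were higher (Psmc1 and Psmf1), where 3.81% of all genes were. In either direction these were 3 members and 10.1% of all genes, and at the adjusted threshold 0 members and 0.0421% of all genes. The fitted change was nevertheless above 0 in 38 of the 48 members, compared with 47% of all genes, with a median of 0.20 over the members and -0.025 over all genes on the log2 scale. For 19 members (39.6%) the lower JMJD1B-/- library exceeded the higher WT library, compared with 20.1% of all genes. For 4 members (8.33%) the order was the opposite (Psma8, Psmb8, Psme2 and Psmd13), compared with 22.7% of all genes. Members share their libraries, so these counts are a description of 4 libraries and not a test of the family.

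**Figure D1:**
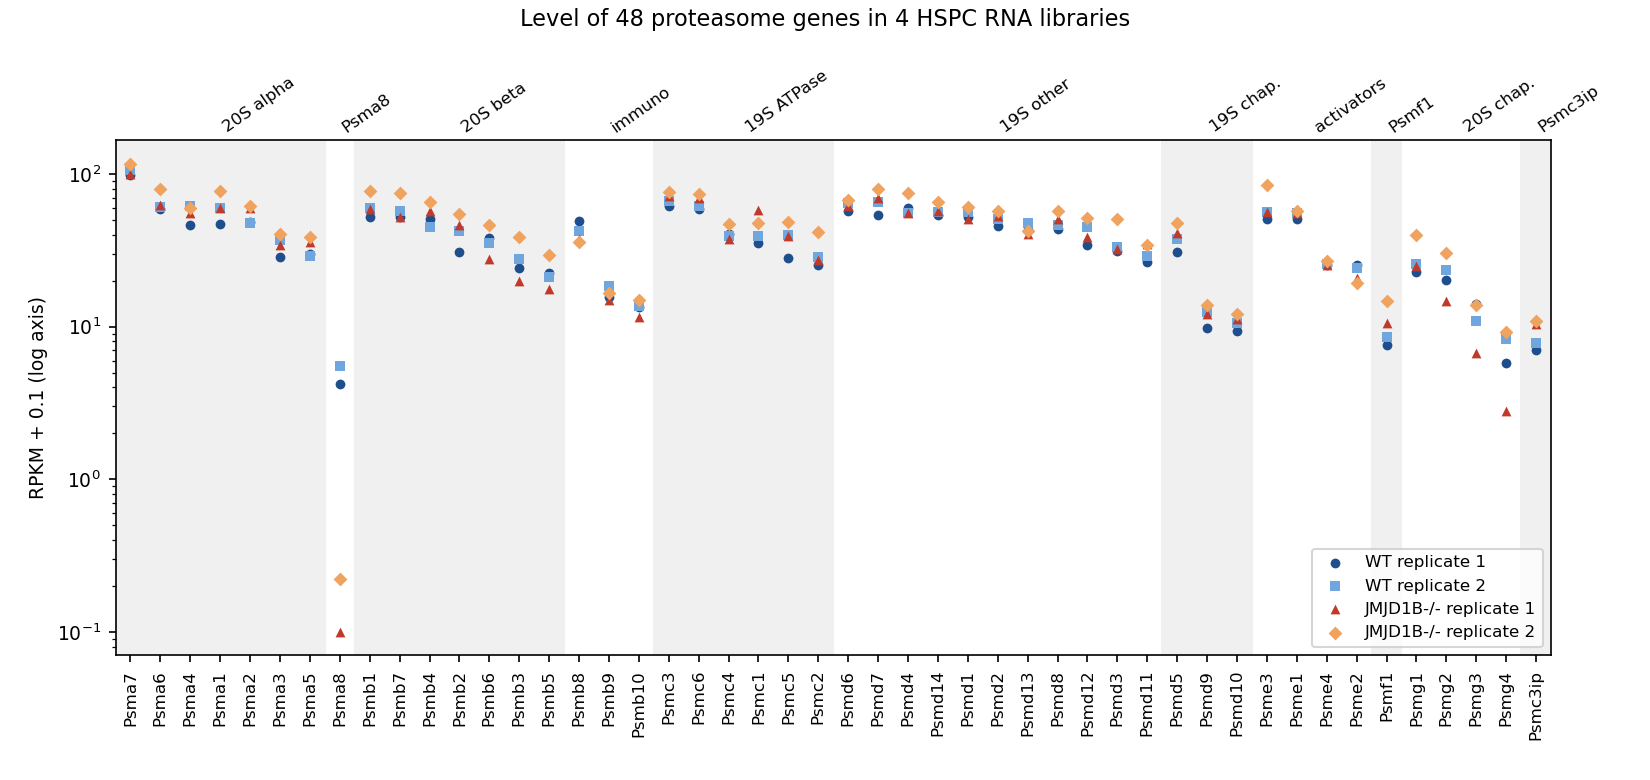
Level of each of the 48 genes in the 4 libraries, as RPKM + 0.1 on a log axis, grouped by role and ordered by WT mean within a group. Most members lie between 10 and 100 RPKM with the libraries close together, and Psma8 is the one gene whose JMJD1B-/- points fall below 1.

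Psma8 showed the largest difference of the family. WT cells contained 4.10 and 5.41 RPKM of it, whereas JMJD1B-/- replicate 1 listed it at 0 and JMJD1B-/- replicate 2 at 0.123 RPKM. The groups did not overlap, and the gap was far larger than the spread between the WT libraries. Psma8 met the listing rule of 1 RPKM in a library and the mean filter of 0.5 RPKM through its WT values alone. A gene as low in WT as in JMJD1B-/- would not have been tested, so the gap and the p values below describe a gene that entered through WT. The fitted change was -5.01 on the log2(RPKM + 0.1) scale (SE 0.78, unadjusted p = 0.000294, limma adjusted p = 0.117, and 0.00405 with the replicate numbers as a block). The size of this value depends on the constant added before taking logs, being -2.43 with 1 and -7.02 with 0.01, since one library is listed at 0. The unadjusted p stayed below 0.05 in all 14 alternative fits, 4 of which left 1 library in a genotype and took the spread from the other genotype alone, so that the lone library was assumed to vary like those. When single libraries were left out, the adjusted p was 0.000457 (JMJD1B-/- replicate 1), 0.000475 (JMJD1B-/- replicate 2), 0.999822 (WT replicate 1) and 0.989 (WT replicate 2).

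The depth of the libraries limits what can be said of the residual Psma8 signal. The estimated depths turn the WT levels into 71.7 and 133.1 reads per kilobase of transcript, and that of JMJD1B-/- replicate 2 into 2.58 reads per kilobase. In JMJD1B-/- replicate 1, where no read was listed, 3 reads on a transcript of 1 kilobase would be worth 0.492 RPKM, a level below both WT libraries. These figures cover counting error only. Psma8 was the lowest member of the family in WT, next to the core chaperone Psmg4 at 5.66 and 8.17 RPKM. Relative to its somatic counterpart Psma7, its RPKM was 4.12% and 5.08% in WT and 0% and 0.105% in JMJD1B-/-.

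The measured genes next to Psma8 were examined as well. Psma8 lies on the chromosome that also carries Kdm3b, as does Psmg2. The paper derived the knockout from embryonic stem cells of a named strain, whereas the mice compared were of mixed background. Loci linked to Kdm3b may therefore differ in strain origin between JMJD1B-/- and WT. The strain origin of Psma8 in each library was not tested, so it is not separated here from the loss of Kdm3b. Of the 3 genes on either side of Psma8 in the RefSeq order, 2 were in the table. Taf4b, a TFIID subunit gene next to Psma8, was at 4.54 and 5.24 RPKM in WT and 5.22 and 5.45 RPKM in JMJD1B-/- (log2 change 0.13, 95% interval -0.54 to 0.79). Ss18, a BAF complex subunit gene 2 places away on the other side, was at 31.5 and 28.3 RPKM in WT and 24.4 and 32.5 RPKM in JMJD1B-/- (log2 change -0.08, 95% interval -0.58 to 0.41). Farther away, in genes chosen after their values were seen, Kctd1 was at 6.82 and 5.60 RPKM in WT and 4.73 and 5.397 RPKM in JMJD1B-/- (log2 change -0.29, 95% interval -0.95 to 0.38), and Zfp521 at 5.89 and 3.53 RPKM in WT and 3.09 and 3.69 RPKM in JMJD1B-/- (log2 change -0.42, 95% interval -1.29 to 0.44). Of 16 germ cell genes, 4 were in the table (Mnd1, Stag3, Rec8 and Ddx4). Their summed RPKM was 13.7 to 16.6 in WT and 15.7 to 18.2 in JMJD1B-/-. Its members differed in direction, with Stag3 higher in JMJD1B-/- (4.00 and 2.02 RPKM in WT, 6.62 and 5.16 RPKM in JMJD1B-/-), the mean of Ddx4 higher, and the means of Mnd1 and Rec8 lower. Their part in the Psma8 values was not tested. Sycp1, Sycp2, Sycp3, Dmc1 and Dazl were among the germ cell genes not in the table, which holds only genes that reach 1 RPKM in a library.

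**Figure D2:**
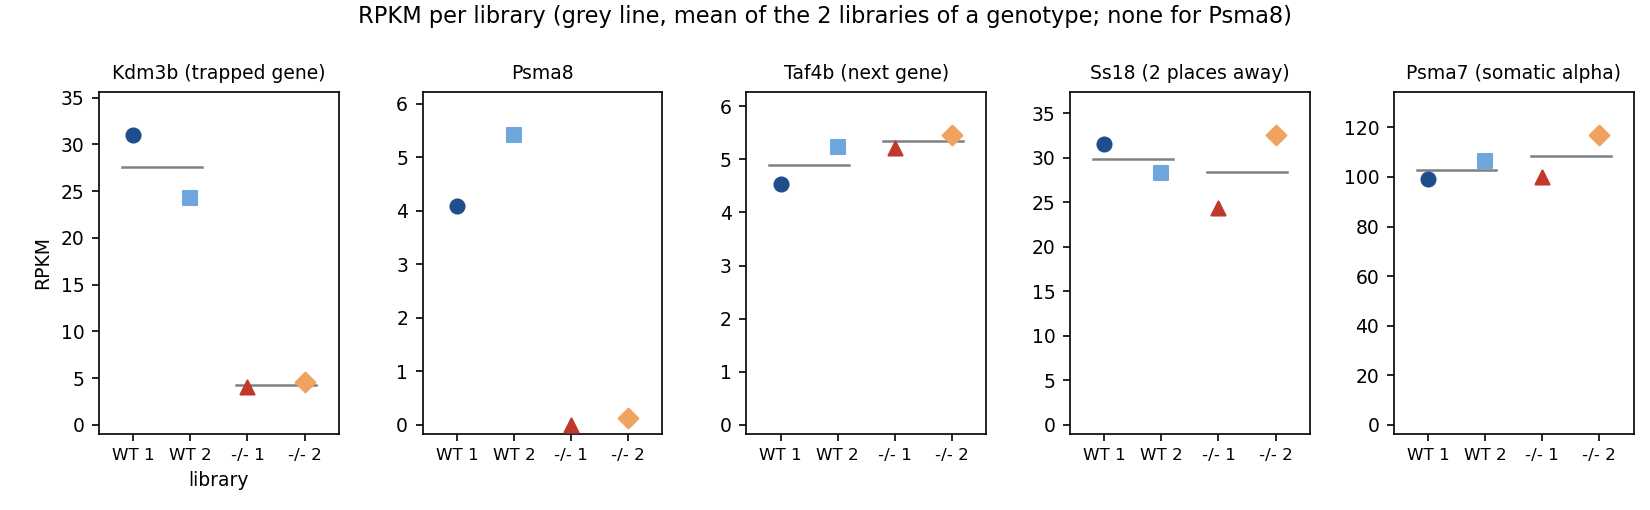
RPKM in each of the 4 libraries for Kdm3b, Psma8, the neighbours Taf4b and Ss18, and Psma7, each on its own linear axis from 0. Kdm3b and Psma8 are lower in both JMJD1B-/- libraries, while the libraries of Taf4b, Ss18 and Psma7 overlap between genotypes.

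The alpha ring of the constitutive core had 7 members, all with a fitted change above 0 (median log2 change 0.25, range 0.07 to 0.37). In 4 of them both JMJD1B-/- libraries exceeded both WT libraries (20.1% of all genes), and none passed the test. Psma7 was the most abundant member of the family at 99.3 and 106.5 RPKM in WT and 100.1 and 116.8 RPKM in JMJD1B-/-, and its groups overlapped. Psma5 had the lowest WT mean of the 7, within the WT spread of Psma3, at 29.8 and 29.0 RPKM, compared with 35.8 and 38.6 RPKM in JMJD1B-/-. The largest fitted change was that of Psma1, from 47.3 and 59.7 RPKM to 60.2 and 77.9 RPKM (log2 change 0.37, SE 0.21, limma adjusted p = 0.598). In this gene the lower JMJD1B-/- library only just exceeded the higher WT library. Between Psma7 and the next gene, Psma6, the WT levels were separated by 43.0 RPKM, but no neighbours in the order Psma6, Psma4, Psma1 and Psma2 were separated by more than the spread between the WT libraries.

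The beta ring gave a less even picture. Of its 7 constitutive members, 6 had a fitted change above 0 (median log2 change 0.19). Psmb2 had the largest, from 30.9 and 42.6 RPKM in WT to 46.1 and 54.5 RPKM in JMJD1B-/- (log2 change 0.47, SE 0.22, limma adjusted p = 0.521), and its genotypes did not overlap. Psmb1, a non-catalytic subunit, had the highest WT mean of the ring, within the WT spread of Psmb7, at 52.2 and 60.1 RPKM, and was at 58.8 and 77.0 RPKM in JMJD1B-/-. All 3 catalytic genes were split by library, with JMJD1B-/- replicate 1 below and replicate 2 above both WT libraries. Psmb5, the chymotrypsin-like subunit, was at 22.3 and 21.2 RPKM in WT and 17.6 and 29.6 RPKM in JMJD1B-/-. Psmb6, the caspase-like subunit, was at 37.9 and 35.2 RPKM in WT and 27.6 and 46.6 RPKM in JMJD1B-/-. Psmb7, the trypsin-like subunit, was at 52.5 and 56.9 RPKM in WT and 52.3 and 74.7 RPKM in JMJD1B-/-. Psmb3 had the same order, so 4 of the 7 genes were split in this way, against 17% of all genes. Summed over the 14 constitutive core genes, RPKM was 629 and 691 in WT and 688 and 862 in JMJD1B-/-, which overlapped (exact permutation test, two-sided p = 0.667; the smallest p that 2 against 2 libraries can give is 0.333).

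The inducible catalytic subunits were compared next. All 3 had a fitted change below 0 (median log2 change -0.11), but none passed the test. Psmb8, the inducible chymotrypsin-like subunit, was at 49.4 and 42.6 RPKM in WT and 37.4 and 35.8 RPKM in JMJD1B-/- (log2 change -0.33, SE 0.18, 95% interval -0.75 to 0.10, limma adjusted p = 0.586). Both JMJD1B-/- libraries were below both WT libraries, and the change stayed between -0.43 and -0.22 in the 14 alternative fits. Psmb9, the inducible counterpart of Psmb6, was at 15.5 and 18.4 RPKM in WT and 14.9 and 16.5 RPKM in JMJD1B-/-, with overlapping groups (95% interval of the log2 change -0.60 to 0.39). Psmb10, the counterpart of Psmb7, was at 13.3 and 13.6 RPKM in WT and 11.5 and 14.8 RPKM in JMJD1B-/- (95% interval -0.57 to 0.49). The summed RPKM of the 3 genes was 78.2 and 74.6 in WT and 63.8 and 67.1 in JMJD1B-/-, so both JMJD1B-/- libraries were lower (exact permutation test, two-sided p = 0.333, the smallest possible).

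Ratios within a library do not depend on how the library was scaled. RPKM of Psmb8 exceeded that of Psmb5 in all 4 libraries, by 2.21 and 2.01 times in WT and by 2.12 and 1.21 times in JMJD1B-/-. Only JMJD1B-/- replicate 2 stood apart, and the groups overlapped (exact permutation test, two-sided p = 0.667). The other inducible genes were the minor form. Psmb9 was 0.408 and 0.524 of Psmb6 in WT and 0.539 and 0.353 in JMJD1B-/-, and the genotypes overlapped (exact permutation p = 1.0). Psmb10 was 0.254 and 0.238 of Psmb7 in WT and 0.220 and 0.199 in JMJD1B-/-, lower in both JMJD1B-/- libraries (exact permutation p = 0.333). The summed ratio of the 3 inducible to the 3 constitutive genes was 0.694 and 0.659 in WT and 0.654 and 0.445 in JMJD1B-/-. Its log2 difference was -0.33, being -0.60 with JMJD1B-/- replicate 1 left out and -0.05 with replicate 2 left out, so the size of this difference rested on replicate 2.

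**Figure D3:**
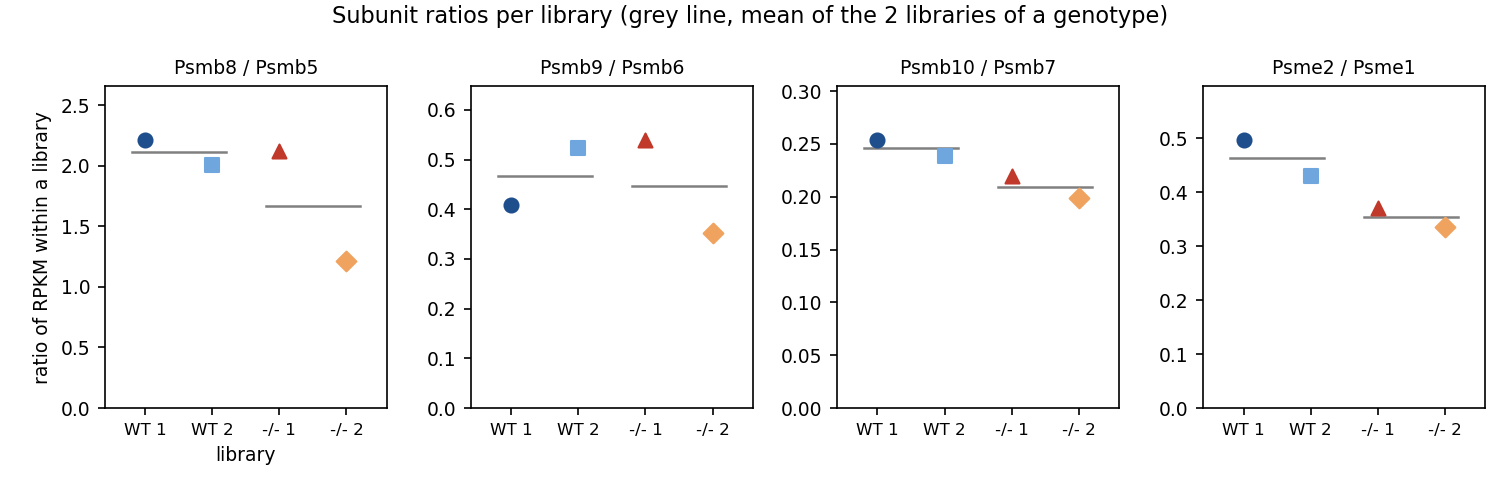
Ratio of RPKM within each library for the 3 pairs of inducible and constitutive catalytic subunits and for the PA28 subunits Psme2 and Psme1, with the mean of each genotype as a grey line on axes from 0. Psmb10 to Psmb7 and Psme2 to Psme1 are lower in both JMJD1B-/- libraries, whereas Psmb8 to Psmb5 is lower in JMJD1B-/- replicate 2 alone.

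The 19S cap was examined in the same way. Of its 17 subunits, 16 had a fitted change above 0 (median log2 change 0.21), and for 8 the lower JMJD1B-/- library exceeded the higher WT library (20.1% of all genes). Psmc1, an ATPase of the base (also called Rpt2), was the one cap subunit with an unadjusted p below 0.05. It was at 35.2 and 39.4 RPKM in WT and 57.8 and 47.8 RPKM in JMJD1B-/- (log2 change 0.50, SE 0.19, unadjusted p = 0.0322, limma adjusted p = 0.449). The genotypes did not overlap for this gene, but the unadjusted limma p exceeded 0.05 without either WT replicate, without JMJD1B-/- replicate 1, without a trend in the variance and in the gene-by-gene test (p from 0.0842 to 0.184). Among the ATPases Psmc3 had the highest WT mean, at 61.6 and 66.5 RPKM, and Psmc2 the lowest, at 25.2 and 28.3 RPKM, neither of them separated from the next gene (Psmc6 and Psmc5) by more than the spread between the WT libraries. Psmc2 was at 27.3 and 41.7 RPKM in JMJD1B-/-, of which only replicate 2 exceeded WT.

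The 11 non-ATPase subunits of the cap had a median log2 change of 0.17, and the 6 ATPases one of 0.29. Psmd6 had the highest WT mean of the non-ATPases, within the WT spread of Psmd7, and was in WT at 57.3 and 64.3 RPKM and in JMJD1B-/- at 61.5 and 67.4 RPKM, with overlapping groups. Psmd11, a lid subunit, was the lowest at 26.3 and 29.1 RPKM and was at 34.97 and 33.99 RPKM in JMJD1B-/- (log2 change 0.31, limma adjusted p = 0.597). Psmd3, another lid subunit, had the largest fitted change, 0.32, which came from replicate 2: it was at 31.2 and 33.2 RPKM in WT and 32.2 and 50.5 RPKM in JMJD1B-/-. Psmd13 was the exception of the cap, with 42.9 and 47.7 RPKM in WT and 40.5 and 42.6 RPKM in JMJD1B-/- (log2 change -0.12, limma adjusted p = 0.845). The difference of Psmd13 was smaller than the gap between its WT libraries. Summed over the 17 genes, RPKM was 752 and 826 in WT and 847 and 977 in JMJD1B-/-, higher in both (exact permutation test, two-sided p = 0.333, the smallest possible).

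The assembly chaperones of the cap and of the core had medians of opposite sign. Psmd5, Psmd9 and Psmd10, which guide the ATPase ring, all had a fitted change above 0 (median log2 change 0.23). Psmd5 was the highest, with 30.6 and 37.6 RPKM in WT and 40.9 and 47.9 RPKM in JMJD1B-/- (log2 change 0.38, SE 0.20, limma adjusted p = 0.570). Psmd10 had the lowest WT mean, within the WT spread of Psmd9, with 9.21 and 10.6 RPKM in WT and 11.20 and 12.03 RPKM in JMJD1B-/-. Of the core chaperones Psmg1 to Psmg4, 3 had a fitted change below 0 (median -0.20), with a wide spread between the JMJD1B-/- libraries. Psmg4 was at 5.66 and 8.17 RPKM in WT but 2.71 and 9.14 RPKM in JMJD1B-/- (log2 change -0.44, SE 0.54, limma adjusted p = 0.809). Psmg3 was at 13.9 and 10.8 RPKM in WT and 6.61 and 13.8 RPKM in JMJD1B-/-. Psmg1, with the highest WT mean of the 4 but within the WT spread of Psmg2, was at 22.9 and 25.7 RPKM in WT and 24.8 and 39.8 RPKM in JMJD1B-/-. The median of this group was 0.44 without JMJD1B-/- replicate 1, so its direction rested on that library.

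Activators dock on the ends of the core in place of, or beside, the cap. Psme1 and Psme2 form the interferon-inducible PA28 alpha-beta ring. Psme1 was at 50.8 and 55.9 RPKM in WT and 55.6 and 57.4 RPKM in JMJD1B-/-, with overlapping groups. Psme2 was at 25.2 and 24.1 RPKM in WT and 20.6 and 19.3 RPKM in JMJD1B-/-, lower in both (log2 change -0.30, SE 0.19, limma adjusted p = 0.624). The ratio of Psme2 to Psme1, which was added to the planned ratios, was 0.497 and 0.431 in WT and 0.371 and 0.336 in JMJD1B-/- (exact permutation p = 0.333). Reads of Psme2 may be shared with its near-identical copy Psme2b, which was not analysed here. Psme3, the nuclear PA28 gamma, was at 50.9 and 56.3 RPKM in WT and 56.5 and 84.9 RPKM in JMJD1B-/-, and Psme4, the nuclear activator PA200, was at 25.3 and 25.7 RPKM in WT and 25.4 and 26.7 RPKM in JMJD1B-/-. The levels of Psme4 were the most even of the activators (95% interval of the log2 change -0.39 to 0.46).

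Psmf1, which encodes the inhibitor PI31, was at 7.47 and 8.44 RPKM in WT and 10.4 and 14.5 RPKM in JMJD1B-/- (log2 change 0.63, SE 0.26, unadjusted p = 0.0453, limma adjusted p = 0.483). Its genotypes did not overlap. The unadjusted p ranged from 0.0687 to 0.218 in limma without a trend, in the gene-by-gene test, without either WT replicate and without JMJD1B-/- replicate 2. Psmc3ip, which is no part of the proteasome, was at 6.96 and 7.75 RPKM in WT and 10.3 and 10.9 RPKM in JMJD1B-/- (log2 change 0.52, SE 0.24, limma adjusted p = 0.509). On the RefSeq map, 4 members overlap another gene of the table (Psma3 with 3110056K07Rik, Psmc3ip with Mlx, Psmd10 with Atg4a and Psme4 with Erlec1), and without strand their reads cannot be told apart.

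**Figure D4:**
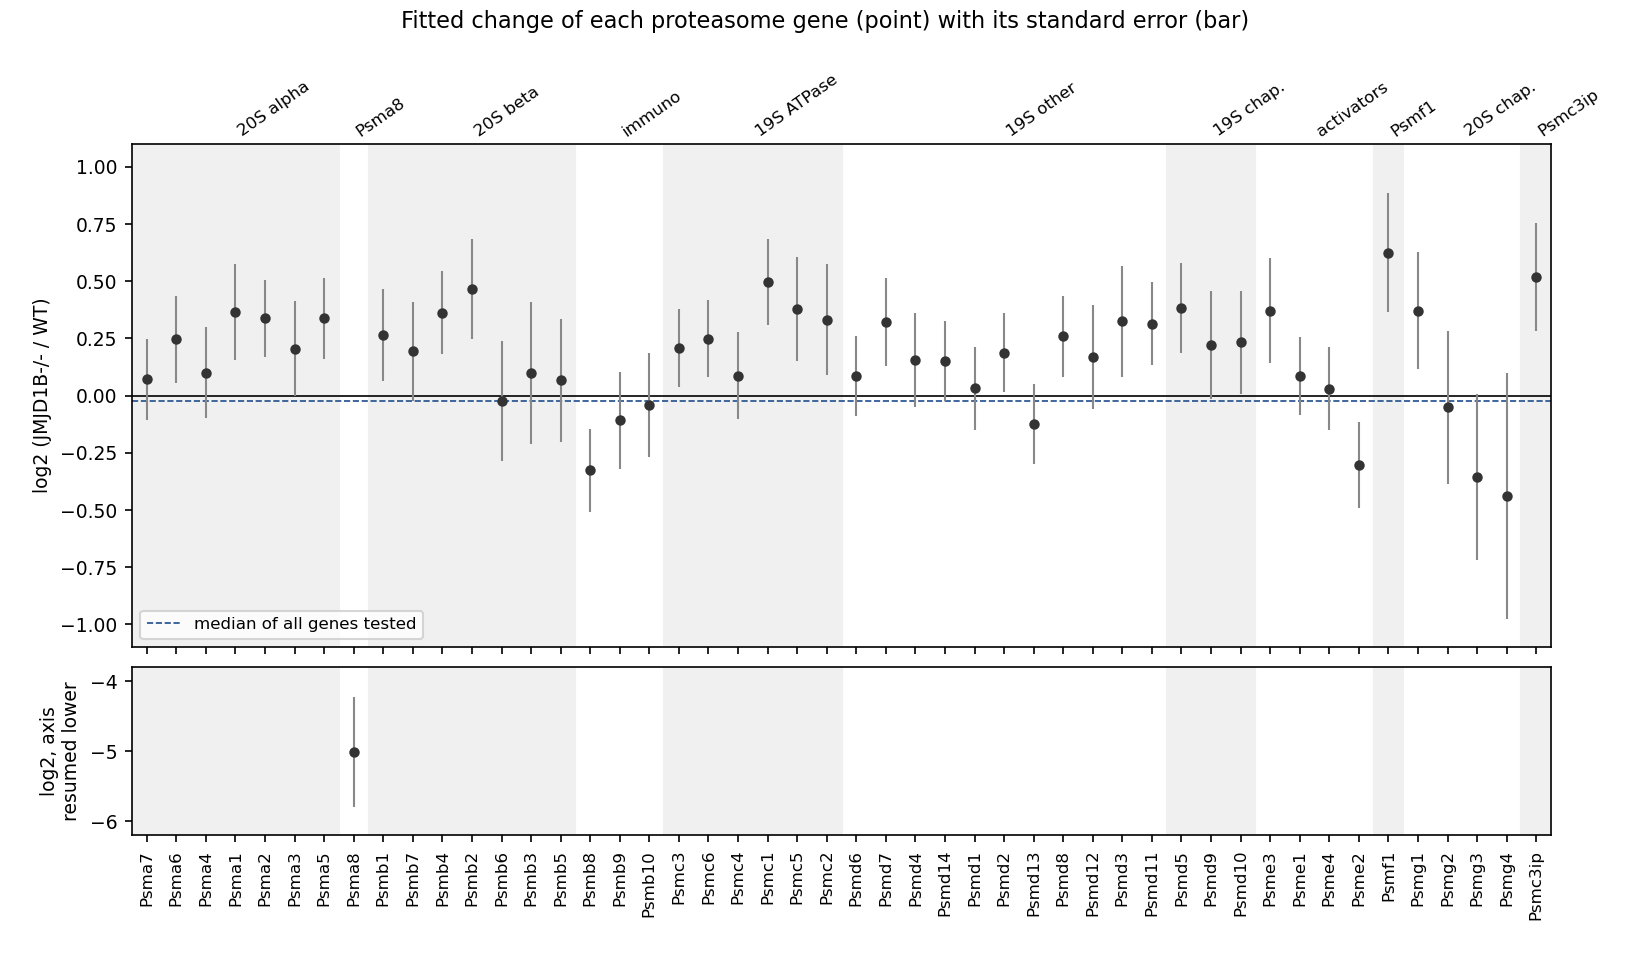
Fitted log2 change of each of the 48 genes between JMJD1B-/- and WT (point) with its standard error (bar), on an axis that is interrupted to show Psma8 in the lower panel; the dashed line is the median of all genes tested, -0.025. Constitutive core and cap genes lie mostly above the line and the 3 immunoproteasome genes lie below 0.

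The JMJD1B-/- libraries contributed unequally. JMJD1B-/- replicate 2 was the highest of the 4 libraries for 39 of the 48 members, against 39.3% of all genes. Measured against the WT mean on the log2 scale, the median member was 0.05 higher in the first and 0.36 higher in the second JMJD1B-/- library, where the median of all genes was -0.10 and 0.09. Relative to all genes the members were thus 0.15 and 0.27 higher. After median-ratio scaling, which removes the shift of the whole library, both JMJD1B-/- libraries exceeded both WT libraries for 27 members (22.9% of all genes), and replicate 2 was the highest for 28 members (28.05% of all genes). After quantile normalization these counts were 25 members (25.0% of all genes) and 27 members (31.6% of all genes). JMJD1B-/- replicate 1 fell below and replicate 2 above both WT libraries for 10 members, or 20.8%, a share near the 17% of all genes. Among them were Psmb5, Psmb6, Psmb7, Psmb10, Psmg2 and Psmg4.

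**Figure D5:**
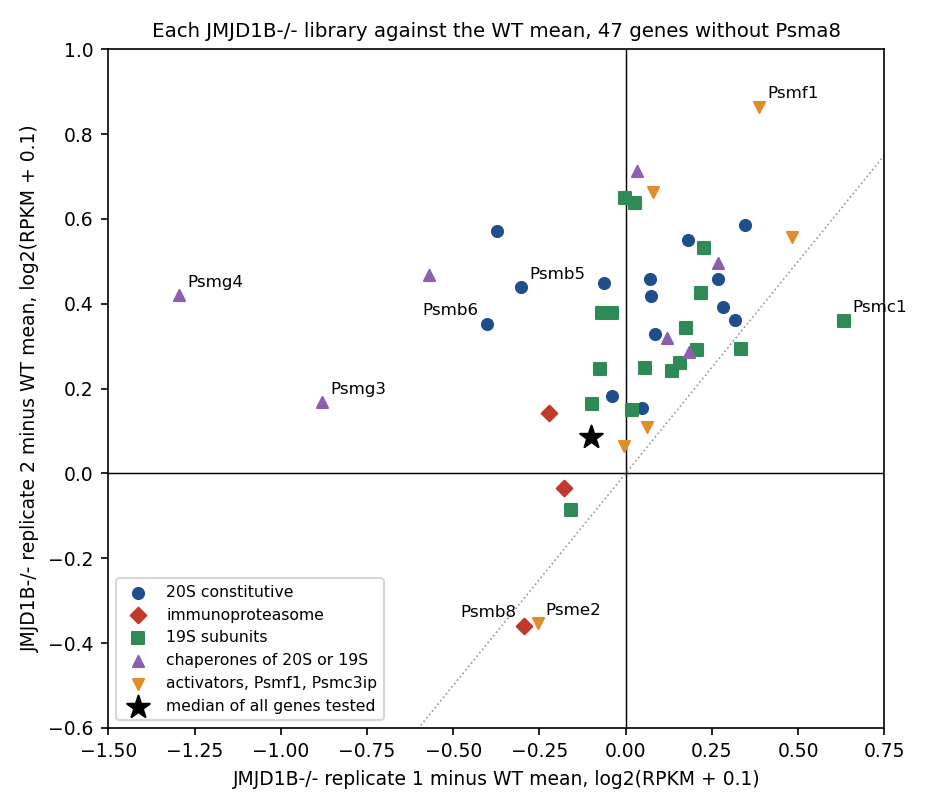
Level of 47 genes (all but Psma8) in JMJD1B-/- replicate 1 (horizontal) and replicate 2 (vertical), each minus the WT mean on the log2(RPKM + 0.1) scale; the dotted line marks equal values and the star the median of all genes tested. Most points lie above the dotted line and above the star, and Psmb8 and Psme2 are low in both libraries.

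Genes that work with the proteasome but lie outside the name rule were taken from lists of ubiquitin genes, shuttles, bound enzymes, p97 partners, transcription factors, antigen processing and interferon signaling. Of these 65 genes, 4 were lower (6.33% of all genes) and 3 higher (3.81% of all genes) at an unadjusted p of 0.05, shares near those of all genes, and none at an adjusted p of 0.05 (limma), and their median log2 change was -0.02. The cap subunit Adrm1 was at 22.2 and 21.9 RPKM in WT and 20.8 and 30.5 RPKM in JMJD1B-/-, the order seen for Psmb5 and Psmb6. Pomp, the maturation factor of the core, was at 47.8 and 59.6 RPKM in WT and 70.6 and 66.9 RPKM in JMJD1B-/- (log2 change 0.36, limma adjusted p = 0.569).

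A list of 10 transcription factors, put together around proteasome genes, came next. Nfe2l1, which drives subunit genes when proteasome activity falls, was at 18.0 and 16.0 RPKM in WT and 13.6 and 17.6 RPKM in JMJD1B-/-. Its relative Nfe2l2 was at 29.9 and 30.7 RPKM in WT and 37.4 and 47.1 RPKM in JMJD1B-/- (log2 change 0.47, unadjusted p = 0.0441, limma adjusted p = 0.483), and Stat3 was at 23.3 and 21.7 RPKM in WT and 15.2 and 15.4 RPKM in JMJD1B-/- (log2 change -0.56, limma adjusted p = 0.425). Maf, whose fitted change was the largest of the 10 factors, was at 0.800 and 1.16 RPKM in WT and 14.3 and 2.32 RPKM in JMJD1B-/- (log2 change 2.47, SE 0.78, unadjusted p = 0.0150, limma adjusted p = 0.389), most of it in replicate 1. Mafg and Mafk of the same list had log2 changes of -0.07 and 0.33 (limma adjusted p = 0.926 and 0.654). Of 12 interferon signaling genes, 1 had a fitted change above 0 (47% of all genes; median log2 change of the list -0.39) and 9 were lower in each JMJD1B-/- library than in either WT library (22.7% of all genes). At an unadjusted p of 0.05, 2 were lower (6.33% of all genes), Irf1 and Irf8, and none passed an adjusted p of 0.05 (limma). Irf8, a myeloid factor, was at 45.9 and 55.0 RPKM in WT and 33.3 and 9.34 RPKM in JMJD1B-/- (log2 change -1.504, limma adjusted p = 0.420). Irf1, an activator of immunoproteasome genes, was at 10.4 and 12.2 RPKM in WT and 6.50 and 4.51 RPKM in JMJD1B-/- (log2 change -1.04, SE 0.28, unadjusted p = 0.00708, limma adjusted p = 0.320). Tap1, which shares its promoter region with Psmb9, overlapped between the genotypes, with 27.1 and 32.6 RPKM in WT and 32.09 and 28.03 RPKM in JMJD1B-/-. Of 18 interferon-stimulated genes, 3 were lower (Ifit1, Oas1a and Gbp3) and none higher at an unadjusted p of 0.05, where 6.33% and 3.81% of all genes were.

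Genes of proliferating cells were measured beside the constitutive core and cap. All 16 had a fitted change above 0 (47% of all genes; median log2 change of the list 0.27), 12 were higher in each JMJD1B-/- library than in either WT library (20.1% of all genes), and Mcm5 and Rrm2 were higher at an unadjusted p of 0.05 (3.81% of all genes) and none at an adjusted p of 0.05 (limma). Their summed RPKM was 1162 and 1350 in WT and 1455 and 1522 in JMJD1B-/-. These sums, like those of the erythroid, basophil, granulocyte and stroma markers above, did not overlap between the genotypes, and their part in the levels of the proteasome genes was not tested.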

How the data were processed

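RNA was extracted with the Qiagen RNeasy micro kit and libraries of polyA RNA were built with the TruSeq RNA kit V2, per the labels. The authors deposited RPKM values with 1 added, which was subtracted here. The submitters' processing notes name Novoalign, TopHat2 and build mm9 without roles; the counter, its annotation and the use of strand are not given in the sources used here. The table lists 12024 entries under 11982 names, keeps genes of at least 1 RPKM in a library, and 84 entries that shared 42 names were averaged; no member was among these. The other 31 samples of the series are not analysed here.

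Members and gene lists were chosen with earlier results of these data known. RPKM + 0.1 was log2-transformed, and the 11863 genes with a mean of at least 0.5 RPKM were fitted with limma 3.58.1 (R 4.3.3; lmFit, eBayes with trend, two-sided, Benjamini-Hochberg over all genes tested). No covariate was used. Fold changes on this scale understate those of low genes. Ratios and sums were compared by exact permutation. The study names a two-tailed Student test, which was run gene by gene as an alternative. The fit was tested on simulated data. Depth was estimated from steps of low RPKM values on which 38 genes agreed, since RPKM rises by equal steps per read. A value from the shallowest library, 6100000 reads, is the least precise.

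Genes named with values were Psma8, the 3 inducible catalytic subunits and their counterparts, members with an unadjusted p under 0.05, the highest, the lowest and the most changed member of each group, activators, Psmf1, Psmc3ip and Kdm3b. Psmd13, Psmg3 and the pathway genes described were named after their values were seen. Promoter sequences come from RefSeq (GRCm38.p6); none was matched for Psma8, Psmb1, Psmb2, Psmb7, Psmc3, Psmd3, Psmd7 and Psmg2. Alternatives changed the constant (1 or 0.01), the filter (none, or 1 RPKM), the scaling (median ratio, quantile), the variance model, the test, a replicate block, the handling of shared names, or left out each library.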

Additional observations from a re-analysis of the deposited data

How the results depend on the processing

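Psma8 remained lower at an unadjusted p under 0.05 in all 14 alternatives, with log2 changes from -7.02 to -2.43, and its adjusted p ran from 0.000457 to 0.999822. The number of members called lower at that threshold was 1 in the reported fit, 2 in the gene-by-gene test and 1 to 4 when a library was left out, the highest without JMJD1B-/- replicate 2, where Psmg2, Psmg3 and Psmg4 joined Psma8 and Psmg4 passed an adjusted p of 0.05 (0.0425). The number called higher was 2 in the reported fit, 7 after median-ratio scaling, 0 in limma without a trend, 4 in the gene-by-gene test and 0 to 15 when a library was left out, the highest without JMJD1B-/- replicate 1. Over all genes, 452 were called higher in the reported fit, 632 after median-ratio scaling, 346 in limma without a trend and 348 in the gene-by-gene test, and leaving out a library gave 177 to 1819 genes called lower and 123 to 1258 called higher. Genes called lower among all genes were 751 in the reported fit and 512 in the gene-by-gene test. Leaving out a library moved the median log2 change of groups over these ranges: 0.084 to 0.36 for 20S alpha, -0.064 to 0.46 for 20S beta, -0.22 to -0.027 for immunoproteasome, 0.18 to 0.35 for 19S ATPase, 0.019 to 0.29 for 19S non-ATPase, 0.14 to 0.39 for 19S chaperone, 0.02 to 0.10 for activator, -0.73 to 0.44 for 20S chaperone. For the 3 catalytic pairs, their summed ratio and the sums of core, cap and immunoproteasome, directions held when a library was left out, except that the log2 difference of Psmb8 to Psmb5 ranged from -0.80 to 0.01 and that of Psmb9 to Psmb6 from -0.39 to 0.22. The cause of these changes was not tested. The replicate numbers in the labels are not stated to mark a shared litter or day, and over 11863 genes the deviations of same-numbered libraries correlated at -0.054, so the numbers were not taken as pairs. With the replicate block the adjusted p of Psma8 was 0.00405, and the counts of members called at the unadjusted threshold were 1 lower and 3 higher, beside 914 and 571 over all genes, against 751 and 452 in the reported fit. The low depth of JMJD1B-/- replicate 1 limits low members such as Psmg4 and Psma8.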
